A study of Mus musculus with 2 samples.

Results

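The genes described here encode the helpers of the Hsp70 and Hsp90 protein-folding machines and the ring-shaped chaperonins, measured in striatum of Drd2-/- and wild-type mice. They are the genes whose symbol in the platform annotation begins with Dnaja, Dnajb or Dnajc (the Hsp40 or J-protein family) or with Cct followed by 2 to 8, together with Bag1 to Bag6, Tcp1, Hsph1, Hspd1, Hspe1, Stip1, St13, Ahsa1, Hsf1 and Hsf2. Of the 18193 genes with at least 1 probe set of their own, 67 met this definition. A probe set is the group of short probes on the array that reports 1 transcript. Dnajc19 was left out of the 67 because its 3 probe sets were shared with the pseudogene Dnajc19-ps, and no probe set was paired with Hsf1 in the annotation used here.

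The study asked how striatal transcripts differ when the dopamine D2 receptor gene Drd2 is missing. The compared groups were 1 sample of Drd2-/- striatum and 1 sample of wild-type striatum, both from naïve C57BL/6 male mice of 2 months. The tissue was picked by hand under a dissecting scope, and biotinylated cRNA made from its total RNA was hybridised to Affymetrix arrays, 1 array per genotype. The sources used here do not give how the Drd2-/- allele was made, or whether a sample was 1 animal or a pool. With 1 array per genotype no difference below has a replicate error or a test, and that number limits how precise any value is. In bulk tissue of this kind, fewer cells of a type and less RNA per cell cannot be told apart.

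Hsp40 proteins carry a J domain that stimulates the ATPase of an Hsp70 chaperone and, in many members, hand it an unfolded client. Class A and class B members resemble bacterial DnaJ in their domain order, whereas class C members share little beyond the J domain and are tied to single places or tasks, among them synaptic vesicles, the ribosome and the inner mitochondrial membrane. The cytosolic chaperonin, built of Tcp1 and the Cct subunits, folds actin and tubulin inside a closed chamber, and Hspd1 with its lid Hspe1 does the same for proteins of the mitochondrial matrix. Bag proteins and Hsph1 release nucleotide from Hsp70, Stip1 and St13 link Hsp70 to Hsp90 or to clients, and Ahsa1 stimulates the Hsp90 ATPase. Many of these genes are induced by heat shock factor, which binds repeats of GAA in alternating orientation.

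The promoters of 3 members are shown because they hold such repeats and belong to the genes that the results return to. They are Dnaja4, the Hsp40 gene with the lowest ratios over its probe sets, Hspe1, which shares its promoter region with Hspd1, and Hsph1. The sequences are from RefSeq on GRCm38.p6, 5′ to 3′ on the gene's strand, from 250 bases before an annotated start to 50 bases after it. Capitals mark matches to TTCNNGAA or GAANNTTC, both of which read the same on either strand. The windows are chr9:54699309-54699608 on the plus strand, chr1:55087898-55088197 on the plus strand and chr5:149636266-149636565 on the minus strand.
Dnaja4: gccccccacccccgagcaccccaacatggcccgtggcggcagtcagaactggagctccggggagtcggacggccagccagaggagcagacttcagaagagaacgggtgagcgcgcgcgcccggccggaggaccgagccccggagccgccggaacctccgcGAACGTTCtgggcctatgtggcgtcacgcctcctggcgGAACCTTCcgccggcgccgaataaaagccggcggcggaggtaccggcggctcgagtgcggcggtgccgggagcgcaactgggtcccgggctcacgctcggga
Hspe1: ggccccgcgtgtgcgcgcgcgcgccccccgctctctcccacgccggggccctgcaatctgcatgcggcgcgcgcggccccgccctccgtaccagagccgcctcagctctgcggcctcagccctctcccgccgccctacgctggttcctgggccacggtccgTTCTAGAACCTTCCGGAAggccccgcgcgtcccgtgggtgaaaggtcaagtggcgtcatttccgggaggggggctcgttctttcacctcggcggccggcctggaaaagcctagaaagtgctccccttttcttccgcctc
Hsph1: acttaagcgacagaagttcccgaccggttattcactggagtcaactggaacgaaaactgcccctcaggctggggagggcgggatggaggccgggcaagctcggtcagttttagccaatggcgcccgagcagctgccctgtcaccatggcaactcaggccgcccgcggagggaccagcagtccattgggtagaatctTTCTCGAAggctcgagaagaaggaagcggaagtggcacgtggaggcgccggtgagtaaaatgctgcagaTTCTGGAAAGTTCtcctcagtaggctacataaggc

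The Dnaja4 window holds 2 matches, beginning 90 and 52 bases before the start. In the Hspe1 window 3 overlapping matches begin 89, 84 and 79 bases before the start and form a run of alternating units. The Hsph1 window holds 1 match beginning 54 bases before the start and an overlapping pair after it. Windows were available for 56 of the 67 genes, and 15 of these (26.8%) held TTCNNGAA or GAANNTTC in at least 1 window, against 17.0% of all 27025 genes with a window. A run of 3 units, in which a match to one motif overlaps a match to the other by a shared unit, occurred in 4 of the 56, namely Dnajb6, Hspd1, Hspe1 and Hsph1, against 0.662% of all genes. Since Hspd1 and Hspe1 share their promoter region, the same run may be counted under both. A match is a description of the letters and does not show that a factor binds there.

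Before the values are read, the direction of the comparison needs stating. Drd2 itself read 27.4 units and was called absent on the array labelled Drd2-/-, and read 3234.8 units and was called present on the array labelled wild type. The authors' deposited comparison table holds the same signals under the opposite genotype names at all 45101 probe sets. Directions here follow the sample labels, and the table's names would reverse every sign. Of 12 markers of striatal projection neurons 10 had a probe set of their own and all 10 were detected, with a median log2 ratio of -0.09. Of these, 9 were below 0 and 1 above. Pdyn alone was at least 1.5-fold lower in Drd2-/- (456.8 units in Drd2-/- and 808.2 units in wild type, -0.82), and it was called unchanged at -0.5 in the authors' deposited table. The share of probe sets called present was 58.7% on the Drd2-/- array and 57.9% on the wild-type array.

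Most chaperone genes differed little between the arrays. A gene is represented by the probe set that was brightest over both arrays (mean log2 signal), and it counts as detected if that probe set was called present on at least 1 array. Of the 67 genes 58 were detected, and all 58 were present on both arrays. Their median log2 ratio of Drd2-/- over wild-type signal was -0.13, with quartiles of -0.26 and 0.11, and the median over all 12588 detected genes was -0.06. Ratios below 0 were found in 39 of the 58 (67.2%), against 57.1% of all detected genes. Only 2 of the 58, Dnajc21 and Dnajc25, were at least 1.5-fold higher in Drd2-/-, and none was at least 1.5-fold lower. Of all detected genes 9.18% were as much higher and 3.38% as much lower.

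**Figure D1:**
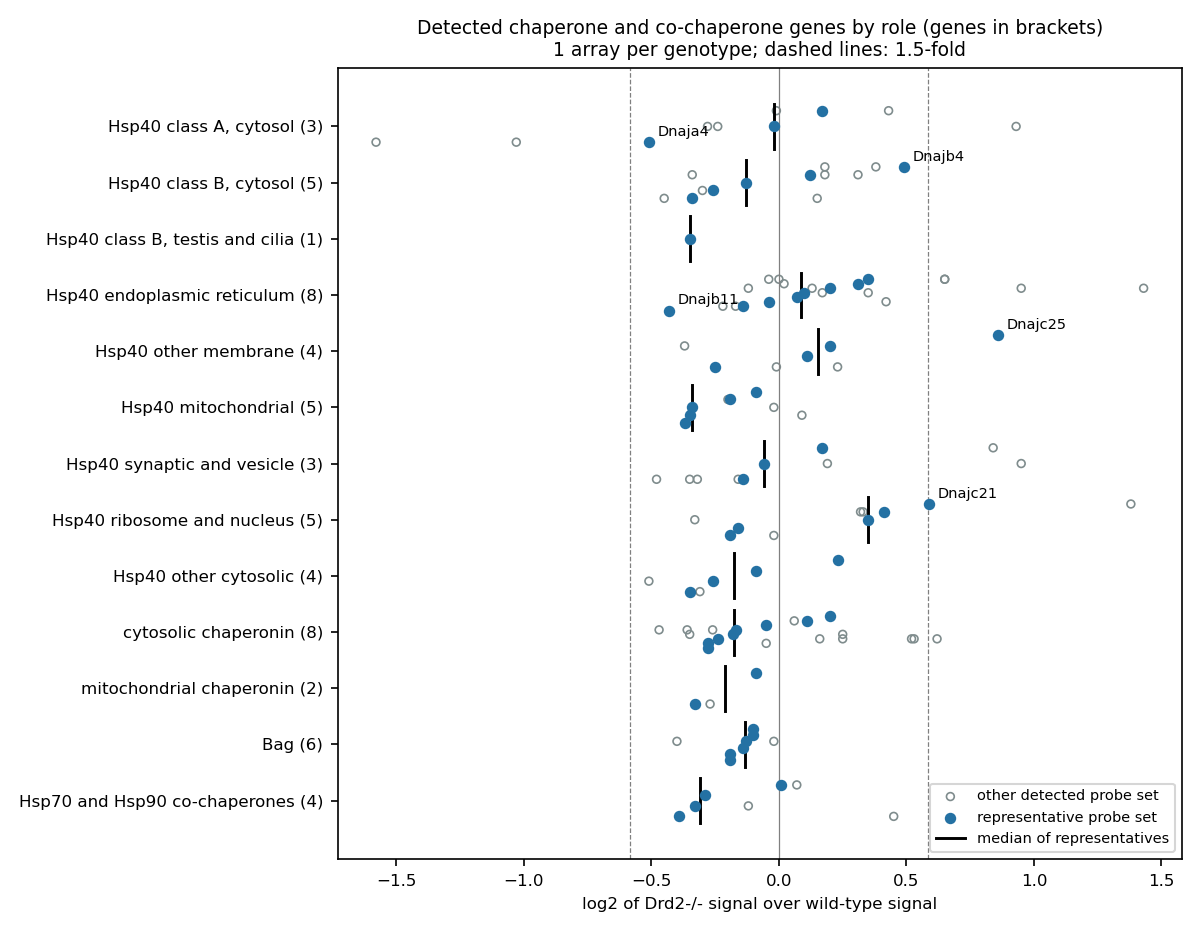
Log2 ratio of Drd2-/- over wild-type signal (x axis) for the 58 detected genes, grouped by role (y axis, number of genes in brackets). Filled points are representative probe sets, open points other detected probe sets and black bars group medians. Of the filled points only Dnajc21 and Dnajc25 reach the dashed line at 1.5-fold, while open points reach -1.58 (Dnaja4). The highest open point, of Dnajc1, was absent in wild type, so its place is not exact.

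Ratios on these arrays differed with signal strength, and the chaperone genes were mostly bright. When detected genes were split into 4 equal parts by mean signal, 36 of the 58 chaperone genes fell in the brightest. There their median was -0.14, the same as the -0.14 of all genes in that part, and 27 of 36 lay below 0, against 72.4% of all genes in it. None of the 36 was 1.5-fold apart, against 3.0% of all genes there. In the second dimmest part 7 chaperone genes had a median of 0.20, against -0.05 for all genes, and the dimmest part held 4 with a median of -0.27, against 0.06. In the third part 11 had a median of -0.10, as did all genes.

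**Figure D2:**
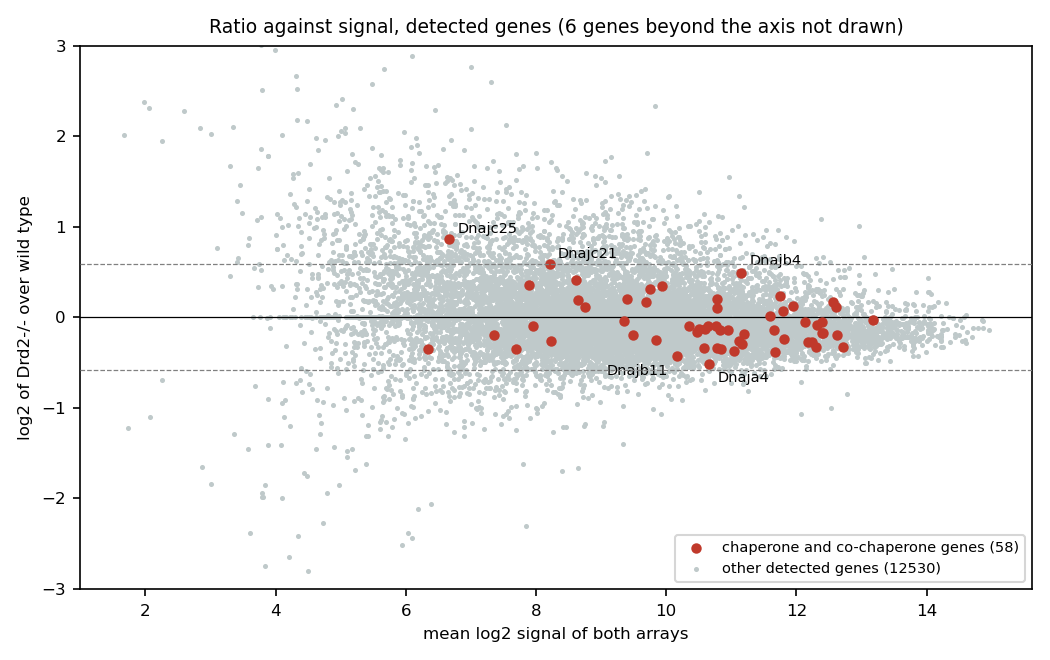
Log2 ratio of Drd2-/- over wild type (y axis) against the mean log2 signal of both arrays (x axis) for detected genes, with the 58 chaperone and co-chaperone genes in red and the others in grey. The red points lie mostly at high signal and between the dashed lines at 1.5-fold. For drawing, the y axis ends at 3 in each direction, which leaves out 6 genes.

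The authors' deposited table gives a change call per probe set, made from the probes of 1 array against those of the other and not from replicate animals. Turned to the sample labels, it calls the representatives of 4 chaperone genes increased (6.9%) and of 9 decreased (15.5%), against 9.19% and 6.38% of all detected genes. Calls of decreased were more frequent among bright genes in general, at 13.5% in the brightest part, where 7 of 36 chaperone genes carried one. The 4 called increased were Dnajb4, Dnajc2, Dnajc3 and Dnajc21. The 9 called decreased were Ahsa1, Cct5, Cct7, Dnaja4, Dnajb1, Dnajb11, Dnajc24, Dnajc27 and Hspe1.

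Among the class A Hsp40 genes of the cytosol, Dnaja4 was lower in Drd2-/- by every probe set and Dnaja1 and Dnaja2 were close to level. The representative of Dnaja4 read 1359.6 units in Drd2-/- and 1938.5 units in wild type, 1.43-fold lower with a log2 ratio of -0.51. Its second full-length probe set read 577.8 units in Drd2-/- and 1182.9 units in wild type (-1.03). Another, designed on expressed sequence tags (ESTs, single partial cDNA reads), read 687.2 units in Drd2-/- and 2049.2 units in wild type (-1.58). All 3 were present on both arrays, and the 3 ratios differ widely in size. The authors' deposited table gives them -0.5, -0.9 and -0.9, all called decreased, so the largest of the signal ratios is not matched there. No other chaperone gene had a detected probe set at least 1.5-fold lower.

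Dnaja4 lies on chromosome 9, as does Drd2, with 54 protein-coding genes between them in the gene order of the GRCm38.p6 RefSeq table. Of those 54 genes 36 were detected, and 12 of the 36 were at least 1.5-fold apart (7 higher and 5 lower in Drd2-/-), which is 33.3%. The share was 13.0% over the 653 other detected protein-coding genes of chromosome 9 and 12.6% over all detected genes. Of the detected genes within 5 places of Dnaja4 on one side, Dmxl2 read 0.41, Idh3a -0.03 and Acsbg1 0.16. On the other side Wdr61 read -0.10, Crabp1 -0.39, Ireb2 0.73 and Hykk -0.27. Whether the position bears on the Dnaja4 ratio was not tested. Dnajc13, the other chaperone gene on this chromosome, read 0.17 by its representative and was higher in Drd2-/- by its second probe set as well.

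Dnaja1, a partner of Hsc70 in the cytosol, read 6436.0 units in Drd2-/- and 5715.1 units in wild type (0.17), with its other probe sets at -0.01 and 0.43. The authors' deposited table has the representatives of Dnaja1 at 0.1 and Dnaja2 at -0.1, both unchanged. Dnaja2 read 9150.5 units in Drd2-/- and 9309.1 units in wild type (-0.02). Other probe sets of Dnaja2 gave -0.28, -0.24 and 0.93, so the sign for this gene differs by probe set. The last, designed on ESTs, read 863.4 units in Drd2-/- and 451.9 units in wild type, and the authors' deposited table calls it increased at 0.9 with limits of 0.7 and 1.0.

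**Figure D3:**
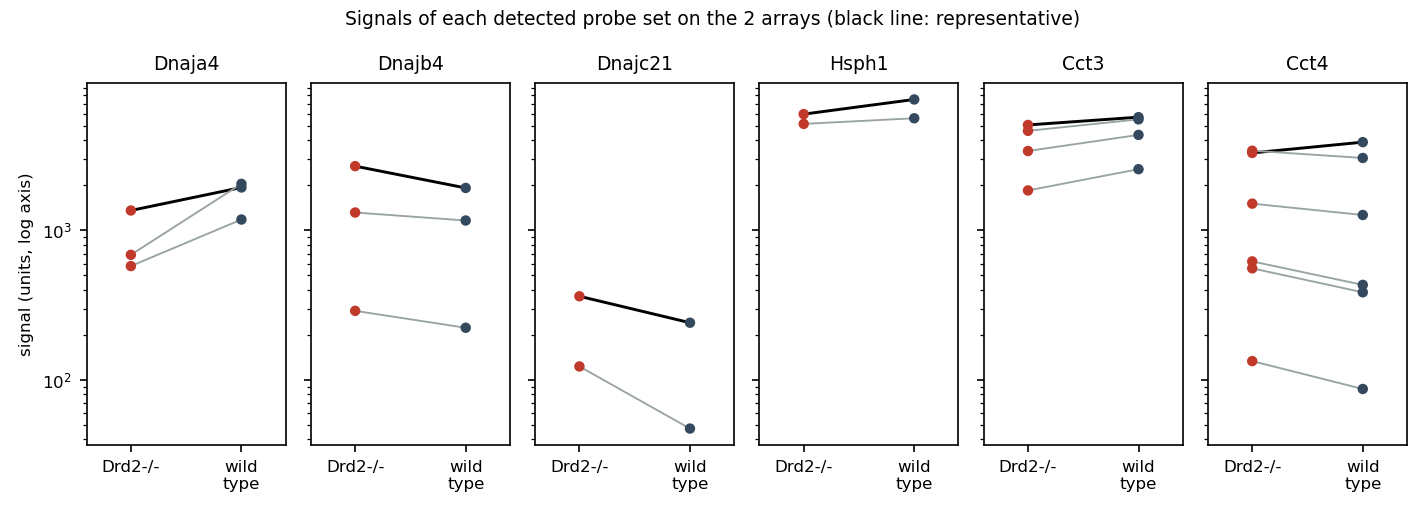
Signals in units (y axis, log scale) of every detected probe set of 6 genes on the Drd2-/- array (left, red) and the wild-type array (right, dark blue), 1 line per probe set and the representative in black. All lines of Dnaja4, Hsph1 and Cct3 are lower in Drd2-/-, all lines of Dnajb4 and Dnajc21 are higher, and Cct4 has lines in both directions.

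Class B genes of the cytosol went in both directions around a median of -0.13 over 5 genes. Dnajb4, a partner of Hsp70, was higher by all 3 probe sets. Its representative read 2692.4 units in Drd2-/- and 1923.7 units in wild type (0.49), and the others gave 0.38 and 0.18. The authors' deposited table calls the first increased at 0.5 with limits of 0.4 and 0.5. Dnajb1, the founding heat-inducible Hsp40, was lower by both of its probe sets. It read 2033.1 units in Drd2-/- and 2436.8 units in wild type (-0.26), and -0.30 by the second, with -0.3 and -0.5 in the authors' deposited table and both called decreased. Dnajb1 and Dnajb4, both partners of cytosolic Hsp70, thus stood on opposite sides of 0.

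Dnajb6, which restrains aggregation of polyglutamine proteins, read 4144.7 units in Drd2-/- and 3803.0 units in wild type (0.12), with its other probe sets between -0.34 and 0.31. Dnajb2, a J protein enriched in neurons, read 1486.5 units in Drd2-/- and 1627.6 units in wild type (-0.13). Dnajb5 read 1556.6 units in Drd2-/- and 1972.8 units in wild type (-0.34), but -0.1 and unchanged in the authors' deposited table, and one of its other probe sets was above 0. The members known mainly from testis and cilia were at the limit of detection. Dnajb7, Dnajb8 and Dnajb13 were present on neither array, and Dnajb3 read 71.8 units in Drd2-/- and 91.6 units in wild type (-0.35, against 0 in the authors' deposited table).

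Hsp40 genes of the endoplasmic reticulum had a median of 0.09 over 8 genes, 5 of them above 0, and of 0.17 by the median over detected probe sets. Dnajc3, an inhibitor of the kinase PERK that also acts as a lumenal co-chaperone, read 1106.0 units in Drd2-/- and 869.7 units in wild type (0.35). Of its 5 detected probe sets 3 were higher, up to 0.65, 1 was level at 419.6 units on both arrays and 1 gave -0.04. The authors' deposited table gives the representative 0.3 with limits of 0.1 and 0.5. Dnajb11, a lumenal partner of the Hsp70 BiP, went the other way at 990.2 units in Drd2-/- and 1336.0 units in wild type (-0.43), by its single probe set. The authors' deposited table has it at -0.3 and decreased.

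Dnajb9, another partner of BiP that is induced by unfolded protein, was close to level at 3652.8 units in Drd2-/- and 3479.2 units in wild type (0.07). Dnajc10, a disulfide reductase of the same compartment, read 1816.9 units in Drd2-/- and 1694.2 units in wild type (0.10), with 3 of 3 probe sets above 0. Dnajb14 read 0.31 (0.02 by its other probe set, with the authors' deposited table at 0 for the first), Dnajc1 0.20, Dnajb12 -0.04 and Dnajc14, which binds the D1 dopamine receptor in its export from the reticulum, -0.14 with all 3 probe sets below 0. Dnajc1 had 4 further detected probe sets, of which the one present on both arrays gave -0.12 and the other 3 were absent in wild type. For comparison, 18 genes of the endoplasmic reticulum stress response had a median of -0.20, with 15 below 0 (83.3%). The share below 0 was 57.1% over all detected genes and 72.4% in the brightest part. This list was brighter than the 8 Hsp40 genes, with a median mean log2 signal of 11.18 against 10.05. Of the 18 only the lumenal Hsp90 gene Hsp90b1 was at least 1.5-fold higher (4336.8 units in Drd2-/- and 2471.5 units in wild type, 0.81). The lectin chaperone Calr of the same list read -0.40. The ratios of the J proteins and of this list overlapped, and their difference was not tested.

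The representatives of the 5 mitochondrial Hsp40 genes with a probe set of their own were all below 0, as were 57.1% of all detected genes. The 5 had a median of -0.34 and a range from -0.37 to -0.09. The median was -0.18 by the median over detected probe sets and -0.2 by the ratios of the authors' deposited table, and the second probe set of Dnajc28 was above 0 (0.09). Dnajc30, linked to complex I of the respiratory chain, read 1856.2 units in Drd2-/- and 2399.9 units in wild type (-0.37). Dnaja3, the J protein of the matrix, read 1359.5 units in Drd2-/- and 1717.8 units in wild type (-0.34), and -0.02 by its second probe set. Dnajc15, of the inner membrane, read 1687.7 units in Drd2-/- and 1801.8 units in wild type (-0.09). All 5 were called unchanged in the authors' deposited table, including Dnajc28 at -0.1 there against -0.35 from the signals and Dnajc11 at -0.2. Dnajc19, also mitochondrial, is not among the 5. Its probe sets, shared with a pseudogene, gave -0.12 (unchanged), 1.06 (increased) and 0.82 (increased), with the authors' calls in brackets. The mitochondrial chaperonin genes were also below 0: Hspd1 read 4944.9 units in Drd2-/- and 5258.5 units in wild type (-0.09), and Hspe1 read 4500.4 units in Drd2-/- and 5653.4 units in wild type (-0.33). Both belong to the brightest part, where 72.4% of all genes were below 0 and their median was -0.14.

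Hspd1 and Hspe1 are transcribed in opposite directions from the region printed above, yet their ratios were not of one size. The second probe set of Hspe1 gave -0.27. In the authors' deposited table Hspe1 is at -0.4 and decreased and Hspd1 at -0.1 and unchanged. Of the related lists, 12 genes of mitochondrial protein quality control had a median of -0.06. Of these, 7 were below 0 (58.3%, against 57.1% of all detected genes). Among these the protease Yme1l1 was the sole gene 1.5-fold apart, at 364.5 units in Drd2-/- and 196.6 units in wild type (0.89), while the nucleotide exchange factor Grpel1 read -0.30 and the matrix Hsp90 Trap1 -0.27.

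The 3 detected J proteins of synaptic vesicles, coated vesicles and endosomes had a median of -0.06, and 0.19 by the median over detected probe sets. Dnajc5, the cysteine string protein that keeps SNAP25 folded at nerve terminals, read 3064.4 units in Drd2-/- and 3373.3 units in wild type (-0.14). All 5 of its probe sets were below 0, down to -0.48, and the authors' deposited table calls the representative unchanged at 0. Dnajc6, auxilin, which uncoats clathrin, read 4416.2 units in Drd2-/- and 4591.9 units in wild type (-0.06), with others at 0.19 and 0.95, the last at under 90 units. Dnajc13, of the endosome, read 872.8 units in Drd2-/- and 778.4 units in wild type (0.17). Its second probe set read 165.1 units in Drd2-/- and 92.5 units in wild type, where it was absent, and the authors' deposited table calls it increased at 0.6. Dnajc5b and Dnajc5g were present on neither array.

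Genes of J proteins at the ribosome and in the nucleus had a median of 0.35 over 5 genes, but were divided. The median was 0.15 with quantile normalization and 0.01 by the median over detected probe sets. Dnajc21, needed for ribosome assembly, read 362.9 units in Drd2-/- and 241.4 units in wild type, 1.5-fold higher with a log2 ratio of 0.59, at the edge of the 1.5-fold limit. Its second probe set read 123.1 units in Drd2-/- and 47.3 units in wild type (1.38). The authors' deposited table gives both 0.6, the first called increased and the second unchanged. Dnajc2, which works with an Hsp70 on the nascent chain at the ribosome, read 453.2 units in Drd2-/- and 341.1 units in wild type (0.41). Its other probe sets gave 0.32 and 0.33, and all 3 were called increased in the authors' deposited table.

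The other nuclear members did not share this. Dnajc8, found with splicing factors, read 5887.8 units in Drd2-/- and 6725.6 units in wild type (-0.19), and Dnajc9, a histone co-chaperone, read 1344.1 units in Drd2-/- and 1503.4 units in wild type (-0.16). Dnajc17 read 0.35 by its representative and -0.33 by its second probe set, which was present in wild type alone. Among membrane-spanning members Dnajc25 had the highest ratio of all 58 genes. It read 137.2 units in Drd2-/- and 75.4 units in wild type, 1.82-fold higher (0.86), from a single dim probe set designed on ESTs, which the authors' deposited table calls unchanged at 0.5 with limits of -0.2 and 1.2.

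Dnajc18 read 846.5 units in Drd2-/- and 1003.7 units in wild type (-0.25), and Dnajc16 read 721.9 units in Drd2-/- and 627.3 units in wild type (0.20). Dnajc4 read 0.11 (-0.2 in the authors' deposited table), and Dnajc22 was present on neither array. The second probe set of Dnajc16 gave -0.37, and the other 2 of Dnajc18 gave 0.23 and -0.01. Of the remaining cytosolic J proteins, Dnajc7, which passes clients between Hsp70 and Hsp90, read 3730.3 units in Drd2-/- and 3174.2 units in wild type (0.23, called unchanged at 0 in the authors' deposited table). Dnajc27, which joins a J domain to a Rab-like GTPase, read 1620.9 units in Drd2-/- and 2068.4 units in wild type (-0.35) and was called decreased there at -0.5. Dnajc24, of diphthamide synthesis, read -0.26 and -0.51 by its 2 probe sets, and Dnajc12, a partner of the aromatic amino acid hydroxylases, -0.09.

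The cytosolic chaperonin was measured through all 8 of its general subunits. Their median was -0.18 with 6 of 8 below 0, against a median of -0.14 and 72.4% below 0 over all genes of the brightest part, and none was 1.5-fold apart. With quantile normalization the subunit median was -0.06, and with intensity-dependent centring -0.05. Cct5 read 4212.4 units in Drd2-/- and 5103.6 units in wild type (-0.28), and Cct7 read 4385.3 units in Drd2-/- and 5312.9 units in wild type (-0.28). Both were called decreased at -0.3 in the authors' deposited table. Cct3 read 5077.4 units in Drd2-/- and 5723.4 units in wild type (-0.17), with 3 other detected probe sets between -0.47 and -0.26. Cct2 read 5126.3 units in Drd2-/- and 5801.3 units in wild type (-0.18), with its other probe sets at -0.35 and 0.25. Tcp1 read 5311.3 units in Drd2-/- and 5492.7 units in wild type (-0.05).

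The subunits did not all lie on one side. Cct6a read 6462.3 units in Drd2-/- and 5990.6 units in wild type (0.11), and Cct8 read 1878.7 units in Drd2-/- and 1634.5 units in wild type (0.20). Cct4 read 3299.4 units in Drd2-/- and 3895.1 units in wild type (-0.24) by its full-length probe set, while its 5 other detected probe sets gave 0.16 to 0.62. The direction of Cct4 is therefore not settled by these arrays. Over detected probe sets the median for Cct4 was 0.39. The testis subunit Cct6b and Cct8l1 were present on neither array. The prefoldin complex delivers actin and tubulin to the chaperonin. A list of 8 genes, of that complex and of phosducin-like proteins, had a median of -0.11. In this list 5 were below 0 (62.5%, against 57.1% of all detected genes). It ran from the phosducin-like Pdcl3 at -0.56 (-0.2 in the authors' deposited table) to Vbp1 of prefoldin at 0.33. The lowest prefoldin gene was Pfdn2 at -0.3.

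**Figure D4:**
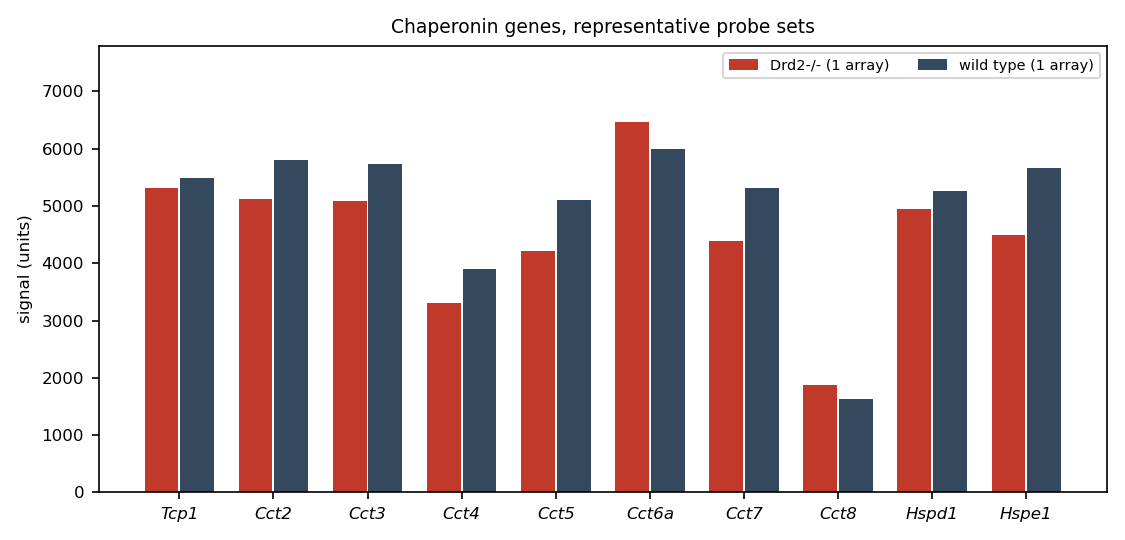
Signal in units (y axis, from 0) of the representative probe sets of 8 cytosolic and 2 mitochondrial chaperonin genes, Drd2-/- (red, left bar) and wild type (dark blue, right bar), 1 array each and no error bars. Drd2-/- is the higher bar for Cct6a and Cct8, and the lower for the other 8. Heights are not comparable between genes, since probe sets differ in sensitivity.

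All 6 Bag genes were detected, and their representatives lay between -0.19 and -0.10. Below 0 were also 57.1% of all detected genes. Each representative was called unchanged in the authors' deposited table, as were 10628 of all 12588 detected genes. Other probe sets of Bag4 gave -0.40 and -0.02. Bag5 read 2204.4 units in Drd2-/- and 2510.8 units in wild type (-0.19), Bag1 read 1884.1 units in Drd2-/- and 2077.3 units in wild type (-0.14), and the stress-inducible Bag3 read 239.6 units in Drd2-/- and 256.3 units in wild type (-0.10). Directions depend on the measure, since the authors' deposited table has Bag2 at 0.1 and Bag6 at 0, against -0.19 and -0.10 from the signals.

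The co-chaperones of Hsp70 and Hsp90 had a median of -0.31 over 4 genes, and of -0.10 by the median over detected probe sets. Hsph1, an Hsp110 exchange factor, read 5998.3 units in Drd2-/- and 7518.1 units in wild type (-0.33), and -0.12 by its second probe set. Stip1, the adaptor between Hsp70 and Hsp90, read 2082.0 units in Drd2-/- and 2550.1 units in wild type (-0.29). Ahsa1 read 2868.2 units in Drd2-/- and 3750.5 units in wild type (-0.39), called decreased at -0.4 in the authors' deposited table, whereas its dim second probe set gave 0.45. St13 was level at 3119.6 units in Drd2-/- and 3094.8 units in wild type (0.01).

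Related genes outside the definition were measured for context. Of 18 other Hsp70 and Hsp90 co-chaperones 13 were below 0 (72.2%), with a median of -0.23. The share below 0 was 57.1% over all detected genes and 72.4% in the brightest part. The immunophilin Fkbp4 alone was past 1.5-fold, at 671.0 units in Drd2-/- and 1020.1 units in wild type (-0.60), and -0.4 in the authors' deposited table. The chaperones themselves were spread more widely, with a median of -0.03 over 12 detected Hsp70 and Hsp90 genes. Hsp90aa1, the inducible cytosolic Hsp90, stood at 1.01, and the inducible Hsp70 genes stood at -0.75 (Hspa1b) and -0.57 (Hspa1a). Ahsa1 and Stip1, which act on Hsp90, were thus below 0 on the array where Hsp90aa1 was higher.

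Of the heat shock factors, Hsf2 was present on neither array (48.1 units in Drd2-/- and 30.3 units in wild type). The deposited probe descriptions, though not the annotation, name Hsf1 for 1 probe set, which read 475.6 units in Drd2-/- and 515.3 units in wild type (-0.12). The authors' deposited table calls it unchanged at -0.4. The motif in a promoter window did not go with one direction. The 13 detected members with TTCNNGAA or GAANNTTC had a median of -0.10 and a range from -0.51 (Dnaja4) to 0.49 (Dnajb4), and the 36 with a window and neither motif had a median of -0.12. The 4 with a run of 3 units read -0.33 (Hsph1), -0.33 (Hspe1), -0.09 (Hspd1) and 0.12 (Dnajb6).

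Probe sets of one gene often differed. Of 37 members with at least 2 detected probe sets, 14 had all of them at or below 0, 8 had all at or above 0, and 15 had them on both sides. The same shares over all detected genes were not computed. Counted singly, 11 of 125 detected probe sets were at least 1.5-fold higher, in 8 genes, and 2, both of Dnaja4, as much lower. Over all detected genes, by their representatives, 9.18% were as much higher and 3.38% as much lower. The share over all detected probe sets was not computed. Of the 11 higher probe sets, 8 were designed on ESTs (the share over all 125 was not counted). The highest signal among the 11 on either array was 863.4 units (Dnaja2). Those of Dnajc1 and Dnajc13 were absent in wild type. Detected genes at large had a median of 0.06 in the dimmest part and -0.14 in the brightest.

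Markers of other tissue differed between the arrays and are given beside the chaperone values. Sums of signals over a list are weighted to its bright probe sets, so medians are given with them. Of 10 cortical neuron markers with a probe set 8 were detected, with a median of -0.58, and 4 were at least 1.5-fold lower in Drd2-/-. Their summed signal was 14492.5 units in Drd2-/- and 14101.8 units in wild type, mostly from Nrgn, Lamp5 and Mef2c, which read 0.08, 0.17 and 0.05. Neurod6 read 25.6 units in Drd2-/- and 146.2 units in wild type (-2.51), and Slc17a7 read 127.2 units in Drd2-/- and 391.6 units in wild type (-1.62). Of 10 choroid plexus and ependymal markers 9 were detected, with a median of 0.0, 4 above 0 and 4 below. Their summed signal was 7247.0 units in Drd2-/- and 4938.2 units in wild type. Ttr read 5347.5 units in Drd2-/- and 2985.2 units in wild type (0.84), while Foxj1 read -0.77. Median log2 ratios were -0.31 over 7 oligodendrocyte markers, -0.22 over 8 astrocyte markers, -0.26 over 8 microglia markers and -0.09 over 7 blood vessel markers. The 8 markers of thalamus and septum had a median of 0.01 but were spread, with 2 at least 1.5-fold higher and 2 as much lower. Among them Rora read 0.75, and Slc17a6 read 12.1 units in Drd2-/-, where it was absent, and 58.5 units in wild type. The part of these in the chaperone ratios was not tested.

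Over 7 ways of computing the ratio, 38 of the 58 genes kept 1 direction, 25 below 0 and 13 above. Adding the same units to both signals cannot turn a sign. For the 21 genes with 1 detected probe set, the median over detected probe sets equals the main ratio. Part of the constancy was therefore fixed in advance, and the share over all detected genes was not computed. No gene was past 1.5-fold under all 7 ways, and 7 were under at least 1. Dnaja4 ran from -1.03 to -0.41, Dnajb4 from 0.38 to 0.60, Dnajc21 from 0.44 to 0.98, and Dnajc25 from 0.50 to 0.94.

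**Figure D5:**
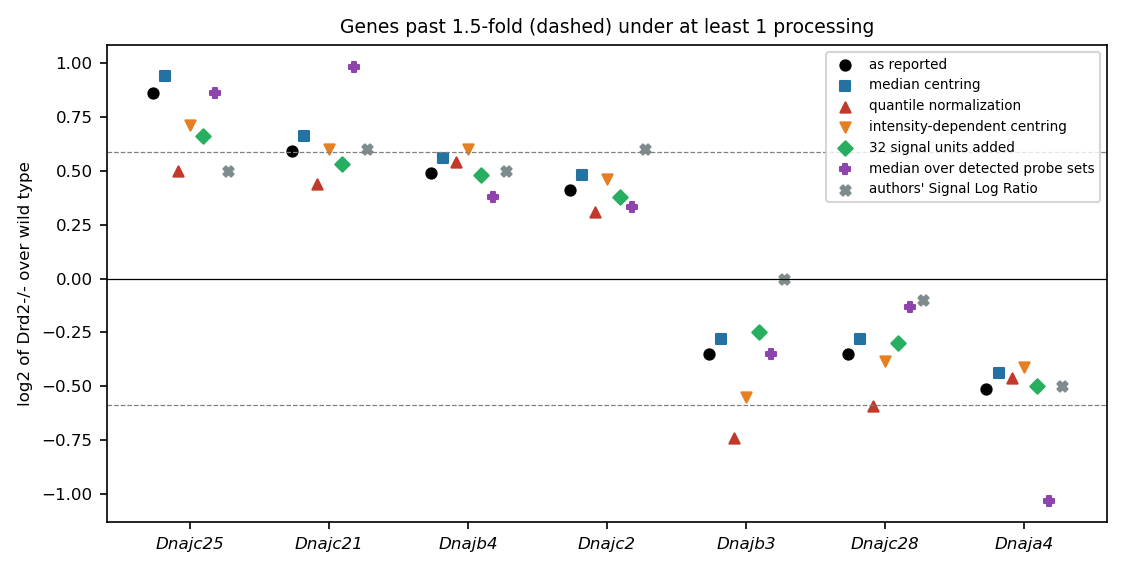
Log2 ratio of Drd2-/- over wild type (y axis) for the 7 genes past 1.5-fold (dashed lines) under at least 1 of 7 ways of computing it, 1 symbol each. Dnajc25, Dnajc21, Dnajb4 and Dnajc2 stay above 0 and Dnajc28 and Dnaja4 below, while Dnajb3 reaches 0.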

How the data were processed

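Striatal RNA of 1 Drd2-/- and 1 wild-type sample was measured on 1 Affymetrix array each. The authors deposited a linear signal intensity per probe set and array, scaled per array per the file headers (mean 500.0 on both after trimming 2% at each end). Per the file headers they also deposited a detection call with its p-value and a log2 Signal Log Ratio with its limits and a change call. The change p-value compares probes, not animals, and is not used. The sources used here do not give software or settings.

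Groups follow the sample labels. The comparison table's signals matched under the opposite genotype names at all 45101 probe sets, so its calls were tied to the array beside them and its ratios turned. Probe sets paired with 1 gene (34945) gave 18193 genes, 12588 of them detected and 11515 present on both arrays. Signals below 0.1 were set to 0.1. Genes present on 1 array were given a bound. For it, the other array's signal was raised to that array's lowest present signal where it was below it. A bound that did not favour the array with the present call was set to 0. No test was possible with 1 array per genotype, and 1.5-fold was used as a size limit. The functions were tested on simulated data. Python 3.11.15, pandas 2.3.3 and statsmodels 0.14.6 were used.

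Members, roles and lists were chosen with earlier results of these data known. All members could be named. Given in full were members at least 1.5-fold apart, the 2 with the highest signal per role, and Dnajb1, Hsph1, Hspd1 and Hspe1, and of each list up to 4 genes with the largest ratios. Other members given in full, the chromosome 9 genes and the promoter windows were chosen after their values were seen. Alternatives were 3 scalings, 32 units added, 2 filters, the median over detected probe sets and the authors' ratio.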

Additional observations from a re-analysis of the deposited data

How the results depend on the processing

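The median of the detected chaperone genes stayed between -0.13 and -0.03 in all 8 alternatives. Keeping only genes present on both arrays could not move it, because every detected chaperone gene was present on both. The median was -0.03 with intensity-dependent centring, a move of the 0.1 taken as the limit since no replicate spread exists. Over all detected genes the median was -0.02 with that centring. With quantile normalization it was -0.11 over all detected genes and -0.07 over the chaperone genes, and by the authors' ratio -0.1 over both. In the other alternatives the chaperone median was the lower. The lower place of the chaperone genes was thus not kept under every processing. The cytosolic chaperonin median of -0.18 was -0.06 with quantile normalization and -0.05 with intensity-dependent centring. The Hsp40 median of -0.08 moved by about 0.1 at most, turning to 0.02 with intensity-dependent centring. The 2 genes at least 1.5-fold higher became 0 with quantile normalization, 1 with 32 units added and 7 of all 67 members with no filter on detection. The count of 0 lower became 2 with quantile normalization, 1 with no filter and 1 (Dnaja4, -1.03) with the median over probe sets. Over all detected genes 6.21% were higher and 7.59% lower with quantile normalization, against 9.18% and 3.38% in the main setting. With 32 units added 6.47% were higher, and by the median over probe sets 3.05% were lower. With no filter, over all 18193 genes, 18.4% were higher and 8.49% lower. Dnajc21 and Dnajc25 stayed above 0 in all 7 ways of computing the ratio, not all of which could turn a sign. Dnajb3 ran from -0.74 to 0. The causes were not tested. No paired analysis was possible because each genotype has 1 array. Dim signals limit Dnajc25, Dnajb3 and the second probe sets of several genes.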
